A study of Mus musculus with 41 samples.

Results

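Fraction B cells, the pro-B stage of the Hardy scheme, were compared with fraction A cells, the stage before it, on 7 arrays of each fraction among the 41 arrays of a series that runs from the common lymphoid progenitor to Hardy fraction F in 7 populations. The comparison took in every probe set with 1 gene symbol, 34958 of the 45101 on the array, and these stand for 18194 genes. All cells of both fractions were flow-sorted B cell precursors from untreated C57BL/6 mice of Pax5 wild type genotype. Total RNA was extracted with the Arcturus PicoPure kit and amplified and biotin-labelled with the NuGEN Ovation Pico system before hybridization to Affymetrix arrays. Nothing in the labels gives the sorting gates, the tissue, the animals' age or sex, or whether replicates came from separate mice, so the p-values rest on the spread between arrays alone, and part of it may be technical. The arrays are called A1 to A7 and B1 to B7 after the replicate numbers in their labels.

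B cell precursors in fraction A carry the B220 form of CD45 (encoded by Ptprc) together with CD43, and at the next step they acquire CD24. Early B cell factor (Ebf1), the E2A proteins (Tcf3) and then Pax5 switch on the genes of the pre-B cell receptor and of its signalling chain, and the Rag recombinase joins immunoglobulin heavy chain segments. B220 is not confined to B cell precursors: plasmacytoid dendritic cells and some natural killer (NK) cells carry it too.

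The deposited value of a probe set is its MAS5 signal, a linear intensity, and the trimmed mean of each array's values was 500 as deposited. A difference is the mean of log2(signal + 32) in fraction B minus that in fraction A, given ± its standard error with n = 7 in each group. For each gene the probe set of highest mean over the 14 arrays was taken, and a rise or fall in fraction B means that limma's test gave it a Benjamini-Hochberg adjusted p under 0.05 over all 34958 probe sets. Where the signals of a group lie near or under 32, the size of a difference and its rank depend on that number. Where 3 signals follow each other they are the lowest, the median and the highest of the 7 arrays. In such bulk samples fewer cells of a type and less RNA per cell cannot be told apart.

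The arrays of fraction A varied more than those of fraction B: the median gene had an SD of 0.71 on the log2 scale in fraction A and of 0.458 in fraction B. A set of 5 arrays, spanning both groups, had a raised top end. Their 99.9th percentile of signal was 65773 on A4, 93428 on A6, 64171 on A7, 45339 on B1 and 48964 on B4, against 23545 to 29418 on the other A arrays and 25110 to 33122 on the other B arrays. A4, A6 and A7 also had the lowest mean correlation with their own group (0.805, 0.803 and 0.829, against 0.886 to 0.895 for the other A arrays), and A4 and A7 had the highest ratios of the 3' to the 5' control probe set of Gapdh (33.8 and 16.7, against 4.14 to 10.8 on the other 12 arrays). The same ratio for beta-actin lay between 0.849 and 1.26 on all 14 arrays. The labels name no batch that would match these 5 arrays, so values are also given within the 9 other arrays (4 of fraction A, 5 of fraction B) and within the 5 where they differ.

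In all, 1166 genes (6.41%) differed, of which 463 (2.54% of the genes) rose and 703 (3.86%) fell in fraction B. The median difference over all genes was -0.12. With each array centred on its median signal 838 genes rose and 526 fell, so that 61.4% of the calls were higher in place of 39.7%, and the median over all genes became 0.03. No gene was called in opposite directions under the pair of scalings. The calls also depend on the probe set that represents a gene. Of 678 called genes with several probe sets, 332 had at least 1 other probe set called the same way. With the probe sets of a gene averaged, 631 genes rose and 871 fell. These included 382 of the 463 and 633 of the 703, and 1 gene was called in the opposite direction. Leaving out 1 array at a time moved the number that rose by over 1.5 times without B2 (283), without B3 (291) and without B7 (298). The 7 arrays of fraction B lay above all 7 of fraction A for 251 genes (1.38%) and below them for 380 (2.09%). Large differences ran mostly downwards: 36 genes rose and 113 fell at least 8-fold. Within the 9 arrays 1008 genes rose and 1372 fell, among them 418 of the 463 and 649 of the 703, and no gene called in both fits changed sign. Within the 5 arrays with a raised top end 12 rose and 64 fell, 12 and 63 of them already called with all 14 arrays. With the 5-array set as a block, 587 rose and 898 fell, including 461 and 702 of the genes called without the block.

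The largest rises were ranked among genes whose arrays did not overlap, which leaves out called rises of like size whose arrays did, such as Cd79a. Among the first 15, Bfsp2, which encodes the lens filament protein phakinin, led. Its signals were 67.3, 163 and 331 in fraction A and 4691, 6055 and 7242 in fraction B (difference 5.05 ± 0.32, adjusted p = 3.81e-10 by limma). B lineage regulators and receptor genes made up several of the others: Pou2af1, Igll1, Irf4 and Ebf1 were among them, as was the vesicle fusion gene Cplx2 (4.44 ± 0.73). Of the remaining ones, Adm, which encodes the vasodilator peptide adrenomedullin, gave 8.9, 176 and 1837 in fraction A and 2673, 7764 and 15917 in fraction B (4.23 ± 0.66). Akap12, an anchoring protein for protein kinase A, gave 173, 296 and 2572 in fraction A and 4939.5, 6434 and 9425 in fraction B (3.68 ± 0.45). The chromatin protein gene Cecr2 gave 71.7, 152 and 558 in fraction A and 2519, 3620.1 and 3817 in fraction B (3.91 ± 0.37). Rsph1 (a radial spoke protein of cilia, 3.85 ± 0.50), Steap4 (a metalloreductase, 3.76 ± 0.42), Endou (an endoribonuclease, 3.70 ± 0.48), Rragd (a Rag GTPase of the mTORC1 pathway, 3.56 ± 0.49), Trim2 (a ubiquitin ligase, 3.53 ± 0.50) and 1700048O20Rik (3.64 ± 0.46) completed the group. Fraction B arrays were uneven for some of these genes: Rsph1 ran from 294 to 5044, Trim2 from 78.3 to 1755 and 1700048O20Rik from 271 to 2309.7. Adm and Trim2 were measured by x_at probe sets, a kind that can cross-hybridize. Of the probe sets of a gene, 1 of 2 rose for Adm, 3 of 6 for Trim2 and 2 of 3 for Cplx2, and none fell.

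The pro-B label of fraction B was checked against its defining markers. Of the 11 measured markers 10 rose (2.54% of all genes did) and none fell, with a median difference of 3.27 against -0.12 over all genes. For 8 of the 11 the groups did not overlap (1.38% of all genes lay above in this way). Ebf1, the factor of B lineage commitment, gave signals of 129, 246 and 1271 in fraction A and 2855, 4324 and 5090.2 in fraction B (3.50 ± 0.41, adjusted p = 3.52e-06), and each of its 5 probe sets rose, by 3.30 to 5.02. Pax5, which holds cells in the B lineage, gave 19.8, 81.9 and 447 in fraction A and 892, 1147 and 1473 in fraction B (3.39 ± 0.43, adjusted p = 1.17e-05). Fraction A was not at zero for Ebf1, for which A7 reached 1271 and A4 960.5. For Pax5 the highest A array was A6 at 447, and the other A arrays lay at 19.8 to 154.8. A6 also had the highest median signal of the A arrays, 146.4 against 69.1 to 114.3 on the others. Whether the 447 on A6 reflects Pax5 transcript was not tested. Cd79b, which encodes a signalling chain of the B cell receptor, gave 121, 846 and 3799.6 in fraction A and 6324, 6819.6 and 11917 in fraction B (3.27 ± 0.44, adjusted p = 2.05e-05). Blnk, the adaptor downstream of that receptor, gave 78, 559 and 1129 in fraction A and 2284, 4377 and 4727 in fraction B (2.87 ± 0.41, adjusted p = 4.59e-05). Vpreb3, a protein of the surrogate light chain family, gave 46.7, 102 and 902 in fraction A and 1021, 2323 and 2698 in fraction B (3.28 ± 0.49, adjusted p = 7.60e-05). All 3 were higher on each fraction B array than on any of fraction A. Within the 5 arrays with a raised top end (3 of fraction A, 2 of fraction B) all 11 markers were higher in fraction B, and limma called none of them (9 at an unadjusted p under 0.05).

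**Figure D1:**
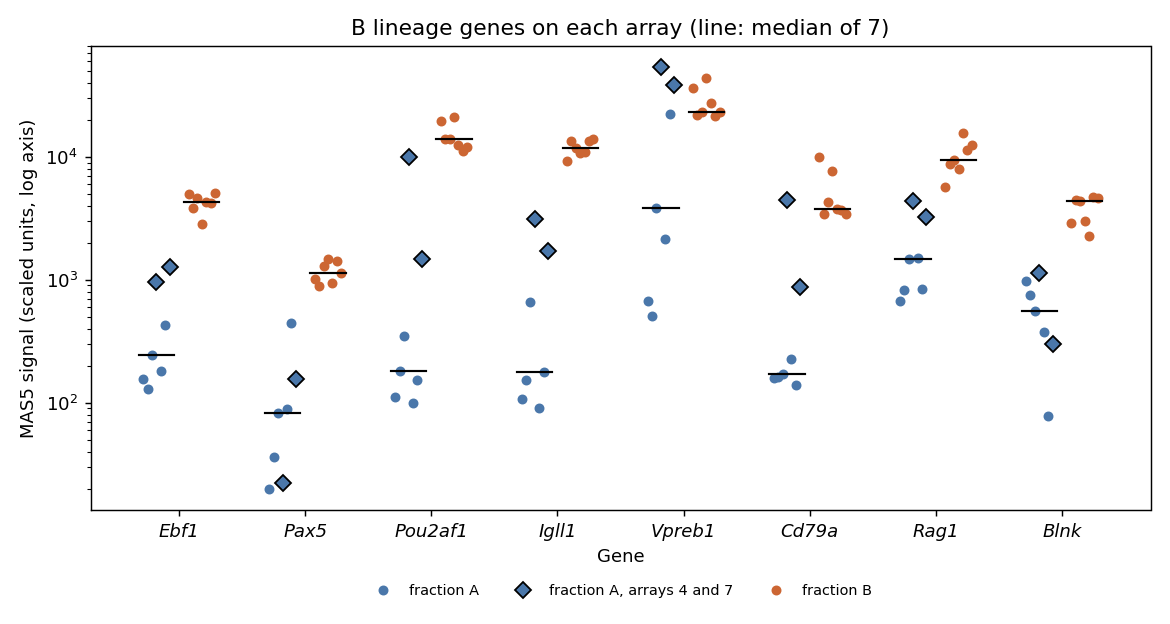
Signal (MAS5 units, log axis) of 8 B lineage genes on each of the 7 arrays of fraction A and the 7 of fraction B; lines mark the median of each group and diamonds mark arrays A4 and A7. Fraction B points lie close together, while A4 stands highest in fraction A for Pou2af1, Igll1, Vpreb1, Cd79a and Rag1.

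The summed signal of the 11 pro-B markers showed how the fraction A arrays differed among themselves. It was 10845, 20784 and 93404 in fraction A and 90136, 98022 and 114450 in fraction B. The highest A array was A4, and A7 followed with 63358. Vpreb1 and Dntt made up most of the sum on every A array. Their share was 79.1% on A4, 83.5% on A7 and 71.3% to 90.4% on the other A arrays. On the B arrays it was 45.1% to 55%. The other 9 markers summed to 19528 on A4, 10429 on A7, 2707 to 4504 on the other A arrays and 47815 to 52849 on the B arrays, so that without that pair A4 and A7 lay above the other A arrays and below all B arrays. Pax5 was 22.2 on A4. On the log2 scale the mean of the 11 markers was 11.17 on A4 and 10.67 on A7, between 8.60 and 9.33 on the other A arrays, and between 12.35 and 12.64 on the B arrays.

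Surrogate light chain and receptor genes varied widely among the A arrays. Igll1, which encodes the lambda5 chain of the surrogate light chain, gave 89.8, 176 and 3155 in fraction A and 9280.3, 11945 and 14095 in fraction B (4.81 ± 0.56, adjusted p = 3.17e-06), and within fraction A it was 3155 on A4 and 1723 on A7. Without A4 and A7 its difference was 5.80, and within the 9 arrays with a lower top end 5.89 (adjusted p 1.14e-07 by limma). Its representative is an x_at probe set, a kind that can cross-hybridize, and its second probe set rose by 2.68. Vpreb1 encodes the partner of lambda5. Its signals were 509, 3823 and 53963 in fraction A and 21576, 23266 and 44294 in fraction B, and it did not pass the test (2.32 ± 1.02, adjusted p = 0.242 by limma). A4, A7 and A6 stood at 53963, 38299.5 and 22307, inside or above the range of fraction B, and the other 4 A arrays at or under 3823. Vpreb1 passed without A4 and A7 (3.54, adjusted p = 0.00189), within the 9 arrays (4.13, 0.00129) and with the 5-array set as a block (2.74, 0.0155); within the 5 arrays its difference was 0.16. Cd79a, the partner of Cd79b, gave 139.6, 172 and 4454 in fraction A and 3447, 3796 and 9967 in fraction B (3.62 ± 0.56, adjusted p = 1.21e-04). A4 (4454) lay within the range of fraction B, and A7 followed with 868. Its difference was 4.21 without A4 and 4.57 without A4 and A7.

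The windows of 250 bases upstream of the start of Igll1, Cd79a and Vpreb1 are shown because these genes encode parts of 1 receptor and were high together on A4 and A7. They come from RefSeq's GRCm38.p6 table, 5′ to 3′ on the gene's strand, with the E-box letters CAGCTG and CAGGTG (read on both strands, so that CAGGTG also appears as CACCTG) in capitals. The Igll1 window is chr16:16863986-16864235 on the minus strand, the Cd79a window chr7:24897247-24897496 on the plus strand and the Vpreb1 window chr16:16869256-16869505 on the minus strand.
Igll1: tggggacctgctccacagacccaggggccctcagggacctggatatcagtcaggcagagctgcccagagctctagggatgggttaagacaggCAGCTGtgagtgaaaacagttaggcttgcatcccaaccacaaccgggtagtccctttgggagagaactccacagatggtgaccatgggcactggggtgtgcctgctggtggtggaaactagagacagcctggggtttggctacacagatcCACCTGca
Cd79a: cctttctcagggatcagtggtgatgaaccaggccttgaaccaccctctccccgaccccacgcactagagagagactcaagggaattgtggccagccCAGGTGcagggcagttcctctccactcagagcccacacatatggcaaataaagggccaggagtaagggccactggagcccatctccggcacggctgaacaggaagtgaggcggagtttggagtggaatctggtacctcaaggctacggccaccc
Vpreb1: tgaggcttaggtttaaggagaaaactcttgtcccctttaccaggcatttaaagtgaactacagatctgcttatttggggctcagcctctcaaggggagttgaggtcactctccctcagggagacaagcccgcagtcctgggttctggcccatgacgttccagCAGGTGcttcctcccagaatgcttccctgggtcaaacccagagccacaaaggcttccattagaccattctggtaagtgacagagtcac
The Igll1 window holds 1 CAGCTG and 1 CAGGTG (as CACCTG), and the Cd79a and Vpreb1 windows hold 1 CAGGTG each. Of the 36 genes that rose at least 8-fold, 27 had a window in the table, and of the 113 that fell as much, 88 had one. CAGCTG occurred in 9 of the 27 (33.3%), in 8 of the 88 (9.09%) and in 14.7% of all 27025 windows. The 9 genes were Ankrd6, Cplx2, Ehd2, Iftap, Igll1, Rragd, Steap4, Tnfrsf19 and Trim2. CAGGTG occurred in 22.2%, 26.1% and 19.4%, the Runx-type letters TGTGGT in 25.9%, 26.1% and 15.9%, and the T-box-type letters TCACACC in 3.70%, 2.27% and 3.84%. All letters were read on both strands, no capitals overlap in the windows shown, and the motifs were chosen after these windows had been looked at. A match describes letters only, and no match says only that they are not in that window.

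Of the 11 measured genes of the pre-B cell receptor and its proximal signalling, 7 rose (2.54% of all genes did) and none fell. The median difference was 2.32, and for 5 the groups did not overlap (1.38% of all genes lay above in this way). Within the 5 arrays limma called none of the 11 (8 at an unadjusted p under 0.05), with all 11 differences above 0. Besides the genes above, Btk, the kinase missing in X-linked agammaglobulinaemia, gave 268, 731 and 1050.2 in fraction A and 1575, 1998 and 2768 in fraction B (1.60 ± 0.30, adjusted p = 0.00120), with A and B arrays apart. Blk, a Src-family kinase of B cells, gave 111, 529 and 2737 in fraction A and 1085, 1407 and 2822 in fraction B (1.55 ± 0.45, adjusted p = 0.0444). Its call rested on most arrays at once: it was lost in all but the fit without A4 (adjusted p up to 0.1), and A4 alone (2737) lay inside the fraction B range. Ighm, the heavy chain that pairs with the surrogate light chain, gave 1988, 3461 and 8768 in fraction A and 3843, 9142 and 16659.6 in fraction B and missed the threshold (1.16 ± 0.35, adjusted p = 0.0509). Its fraction B arrays fell into high and low signals, 9142 to 16659.6 on B1 to B4 and 3843 to 4691 on B5 to B7, and 1 of its 11 probe sets rose by 1.40. Ighm passed with the 5-array set as a block (1.26, adjusted p = 0.0146). Syk (1.01 ± 0.40, adjusted p = 0.162) was high on B1 (8831) and B4 (8954) and between 2379.7 and 3093 on the other B arrays. The adaptor Bank1 gave 1.17 ± 0.49, adjusted p = 0.188.

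V(D)J recombination genes rose in 5 of 12 cases (2.54% of all genes did) and fell in none (median 0.89). Rag1, which with Rag2 cuts the gene segments, gave 673, 1490.1 and 4400.3 in fraction A and 5648, 9387 and 15716 in fraction B (2.69 ± 0.36, adjusted p = 1.82e-05). Rag2 gave 259, 418 and 1097 in fraction A and 2429, 3746 and 4272 in fraction B (2.78 ± 0.31, adjusted p = 1.54e-06). Neither pair of groups overlapped, with A4 and A7 the highest of fraction A for both. Lig4, the ligase of the joining step, gave 120, 170.1 and 836 in fraction A and 701, 1653 and 2398 in fraction B (2.45 ± 0.40, adjusted p = 2.36e-04) and Xrcc6, the Ku70 subunit of the end-binding complex, 1.38 ± 0.31. Dntt, the terminal transferase that adds bases at the joints, was already high in fraction A: 3285, 12458 and 19913 in fraction A and 17266, 19739 and 23939 in fraction B (0.96 ± 0.28, adjusted p = 0.0421). Its call was lost in all but the fits without A3, A4, A5, A6 and A7 (adjusted p up to 0.0857), and within the 9 arrays it was 0.98 (adjusted p = 0.000199). Prkdc (0.67 ± 0.45), Xrcc5 (1.13 ± 0.51), Xrcc4 (0.82 ± 0.41) and the high-mobility protein gene Hmgb2 (-0.03 ± 0.31) were not called.

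Of 30 B lineage transcription factors, 10 rose and 3 fell (median 0.60), against 2.54% and 3.86% of all genes. Pou2af1, the coactivator of the octamer factors, showed the widest spread: 99.2, 182 and 10002 in fraction A and 11173, 13953 and 21342 in fraction B (4.99 ± 0.67, adjusted p = 1.99e-05). A4 (10002) came close to the lowest B array and A7 (1474) stood above the other 5 A arrays, which reached 347; without A4 the difference was 5.73, and without A4 and A7 6.22. The interferon regulatory factors moved in opposite directions. Irf4, which acts in light chain rearrangement, gave 68.6, 190.2 and 669.9 in fraction A and 2320.5, 3467 and 4046 in fraction B (3.83 ± 0.39, adjusted p = 4.00e-07). Irf8, needed for dendritic cells and also present in early B cells, gave 2225, 9115 and 22879 in fraction A and 714, 1244 and 1963 in fraction B (-2.81 ± 0.35, adjusted p = 7.85e-06). The Wnt-responsive factor Lef1 (928, 1873 and 5152 in fraction A and 3784, 9153 and 11767 in fraction B; 2.03 ± 0.32), Erg (1.92 ± 0.35) and Bach2 (1.84 ± 0.29) also rose. Foxo1, which drives Rag and Il7r transcription, rose by 1.08 ± 0.32 (adjusted p = 0.0456), but the call was lost in all but the fits without A4, A6, A7, B5 and B6 (adjusted p up to 0.111). Sox4, needed for pro-B cell survival, rose by 1.21 ± 0.29. In the Ikaros family Ikzf2 (Helios) fell (-2.08 ± 0.50, adjusted p = 0.0127), while Ikzf1 (0.11 ± 0.20) and Ikzf3 (-0.71 ± 0.39) did not pass; within the 9 arrays Ikzf3 fell (-1.2, adjusted p = 0.000142). Klf3 fell by 1.31 ± 0.38, a call lost in all but the fits without A3, A7, B3 and B6 (adjusted p up to 0.0961). Myc (-0.02 ± 0.25), Runx1 (0.16 ± 0.20), Bcl11a (0.00 ± 0.26), Spi1 (-0.66 ± 0.45) and Ets1 (0.65 ± 0.27) were not called.

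E proteins and their inhibitors, the Id proteins, split within each family. Tcf3, which encodes E12 and E47, gave 46.7, 369 and 1018 in fraction A and 859, 1135 and 2226 in fraction B (2.07 ± 0.48, adjusted p = 0.00982). Tcf4 (E2-2), the E protein that plasmacytoid dendritic cells depend on, gave 5466, 7484 and 11386 in fraction A and 2316, 4403 and 5133 in fraction B (-0.99 ± 0.23, adjusted p = 0.0103). Tcf12 (HEB) was not called (0.62 ± 0.34). Id2, which NK and other innate lymphoid cells need, gave 2172, 4203 and 5875 in fraction A and 14.1, 178 and 260.2 in fraction B (-4.53 ± 0.38, adjusted p = 2.54e-08), with all A arrays above all B arrays. Id3 moved the other way with 153, 287 and 611 in fraction A and 583, 1111 and 1467 in fraction B (1.69 ± 0.34, adjusted p = 0.00273), A7 overlapping B5. Id1 (-0.48 ± 0.35) and Id4 (-0.33 ± 0.26) were low on all arrays and not called. For Tcf3 1 of 3 probe sets, 4 of the 6 of Tcf4 and 2 of the 3 of Id2 were called, each in the direction given. The Tcf3 call was lost without B1 and B4 together.

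**Figure D2:**
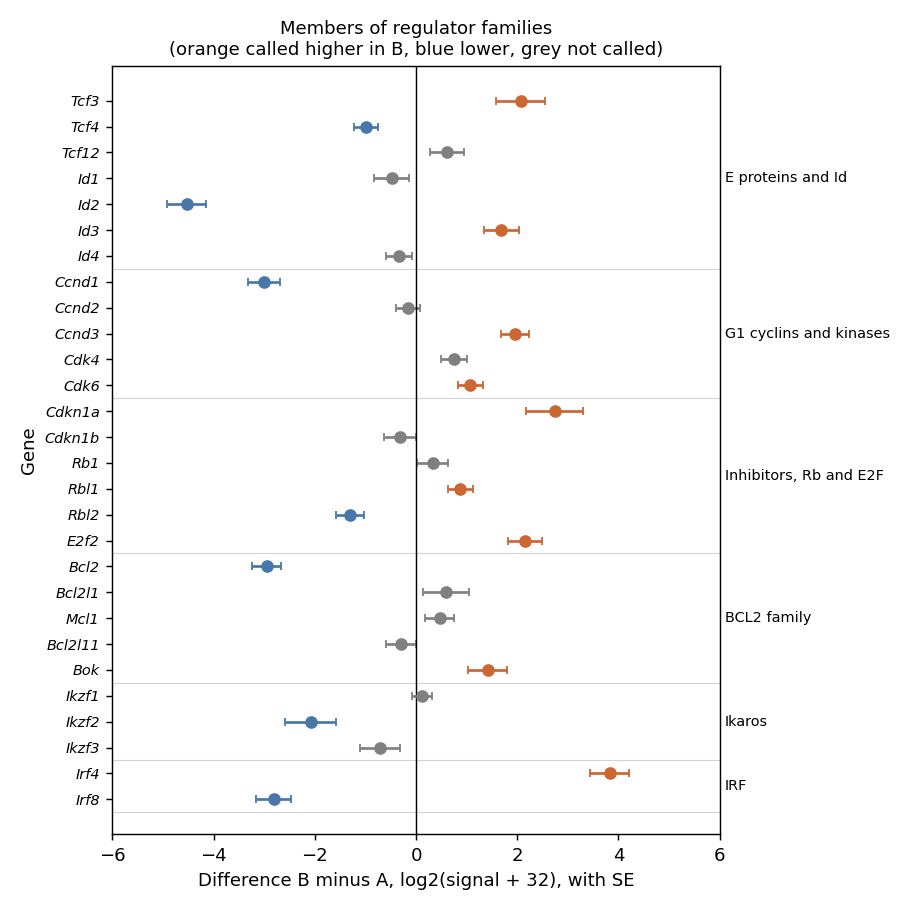
Log2 difference of fraction B minus fraction A (points) with its standard error (bars) for members of 6 gene families. Orange points were called higher in fraction B by limma, blue points lower, and grey points were not called. Tcf3 and Id3 lie above 0 and Tcf4 and Id2 below, Ccnd3 above and Ccnd1 below, and Irf4 above and Irf8 below.

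Genes activated by Ebf1 or Pax5 rose in 11 of 17 cases (2.54% of all genes did) and none fell (median 2.32). Cplx2, a complexin that regulates vesicle fusion, gave 0.8, 9.7 and 1682 in fraction A and 1703, 1994 and 3422 in fraction B (4.44 ± 0.73, adjusted p = 2.71e-04). The other 5 A arrays were at 0.8 to 18.2, and A4 (1682) and A7 (797) approached the lowest B array; the difference was 5.11 without A4 and 5.84 without A4 and A7. Bst1, an ectoenzyme also called BP-3, gave 69.9, 81.6 and 485 in fraction A and 739, 969 and 2247 in fraction B (2.61 ± 0.41, adjusted p = 1.66e-04). Cd72 (1.02 ± 0.35, adjusted p = 0.0933), Cd22 (1.40 ± 0.51, adjusted p = 0.117) and Fcrla (1.58 ± 0.57, adjusted p = 0.117) missed the threshold. For Cd72 the arrays B1 and B4 stood at 5884 and 5707 against 1317 to 2249 on the rest of fraction B. Of 24 genes of B cell receptor signalling 5 rose and 2 fell (median 0.69), against 2.54% and 3.86% of all genes. Sh3bp5 (3.04 ± 0.36) and the tetraspanin Cd81 (1.94 ± 0.26) rose. Nfatc1 fell by 1.47 ± 0.37, and Malt1 fell by 1.16 ± 0.31 with its call lost without A1, A3, A5, B2 and B7 (adjusted p up to 0.0647 by limma).

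Genes that Pax5 represses fell in 7 of 11 cases (3.86% of all genes did) and none rose (median -2.15). Several belong to other lists too: Ccr2, Csf1r and Fcer1g to the monocyte list, Cd28 to the T cell list and Flt3 to the early progenitor list. The part of Pax5 in these falls was not tested. Ccr2, a receptor for monocyte chemokines, gave 1259.7, 2797 and 5859 in fraction A and 7.1, 129 and 360.2 in fraction B (-4.57 ± 0.46, adjusted p = 2.95e-07), with all 4 of its probe sets lower. Cd28, the T cell costimulatory receptor, gave 120.3, 1598 and 2539 in fraction A and 18.7, 36.3 and 89.2 in fraction B (-4.04 ± 0.49, adjusted p = 4.97e-06). Csf1r, the receptor of macrophage colony-stimulating factor, gave 458, 3268 and 26759 in fraction A and 1.8, 333 and 499 in fraction B (-3.91 ± 0.73, adjusted p = 0.00121), and A4 alone reached 26759 while the next highest A array was at 4314. Ccl3 (-3.63 ± 0.61) overlapped through B5 (2121) and lost its call within the 9 arrays (adjusted p = 0.0519). Fcer1g, the common Fc receptor gamma chain (-3.86 ± 0.37), and Emb (-2.15 ± 0.31) fell with no overlap. Flt3, the receptor of an early lymphoid growth factor, gave 873, 1199 and 1787 in fraction A and 11.7, 463 and 1002 in fraction B (-1.70 ± 0.50, adjusted p = 0.0448). Its call was lost in all but the fits without A4, B4, B5 and B7 (adjusted p up to 0.0872). Notch1 (-0.59 ± 0.37) and Satb1 (-0.66 ± 0.24) were not called.

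Of 15 genes whose products are used to sort B precursors, 4 rose and 7 fell (median 0.02), against 2.54% and 3.86% of all genes. Ptprc, which encodes B220, gave 10810.5, 13119 and 17617 in fraction A and 3916, 5399 and 7359 in fraction B (-1.33 ± 0.19, adjusted p = 4.77e-05), and Spn, which encodes CD43, 15877, 18702 and 27918 in fraction A and 9759.6, 12088 and 13092 in fraction B (-0.80 ± 0.17, adjusted p = 0.00443). Transcripts of both genes were thus present in fraction B at a lower level, with no overlap for either gene. Surface protein, such as the B220 form of CD45, was not measured. Cd24a, the antigen that separates the fractions, gave 7089.9, 8779 and 30150.5 in fraction A and 24879, 33199.8 and 57046 in fraction B (1.76 ± 0.27, adjusted p = 1.35e-04). B1 (54867) and B4 (57046) were the highest, and A4 (30150.5) lay within the fraction B range. All 3 probe sets of Cd24a rose. Cd93, the AA4.1 antigen, gave 581 to 2473 in fraction A and 5097 to 5747 in fraction B (1.80 ± 0.26, adjusted p = 6.42e-05). Il7r, the interleukin 7 receptor chain, rose by 0.90 ± 0.22 and Bst1 as given above. Cd2 (-3.06 ± 0.36), Cd34 (-2.27 ± 0.47) and Cd4 (-1.80 ± 0.41) fell. Ly6d, a marker of B-committed lymphoid progenitors, fell by 1.14 ± 0.34 (adjusted p = 0.0485), a call lost in all but the fits without A4, A6, B1 and B4 (adjusted p up to 0.113). Enpep, the BP-1 antigen of the next fraction, stayed at 1.9 to 57.2 in fraction A and 10.2 to 193 in fraction B (0.76 ± 0.37, adjusted p = 0.270). Kit (0.02 ± 0.58, adjusted p = 0.993) and Il2ra (1.21 ± 0.49, adjusted p = 0.179) were not called, and Kit ran from 5.4 to 957 within fraction B with B1 lowest. Of the 9 markers of the pre-pro-B stage, all measured, 5 rose and 3 fell. Their summed signal was 23632 to 47838 in fraction A and 43337 to 51803 in fraction B. Dntt was the largest member of the sum in fraction B (17266 to 23939, against 3285 to 19913 in fraction A). The sum alone is therefore no measure of the stage.

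Interleukin 7 signalling genes rose in 2 and fell in 2 of 18 cases (median -0.18). Over all genes 2.54% rose and 3.86% fell, and 1 or 2 calls in a list of this size are too few to set apart from these shares. Bcl2, which protects lymphocytes from apoptosis, gave 5649, 13722 and 25648 in fraction A and 1154, 1961 and 3075 in fraction B (-2.95 ± 0.29, adjusted p = 1.91e-07), with all 5 of its probe sets lower. The kinase Jak1 fell by 1.33 ± 0.32. Stat5a (0.14 ± 0.30), Stat5b (0.22 ± 0.46) and Socs3 (-1.35 ± 0.43) were not called. Of 14 members of the BCL2 family, Bcl2 was the 1 that fell and Bok the 1 that rose (1.42 ± 0.39, call lost without A1, A2, B2, B3, B6 and B7 (adjusted p up to 0.0824)), beside Mcl1 (0.47 ± 0.29), Bcl2l1 (0.60 ± 0.45) and Bcl2l11 (-0.29 ± 0.30), which were not called. The D cyclins, which start the cell cycle, split. Ccnd1 gave 2766, 3975 and 10302 in fraction A and 236, 501 and 742 in fraction B (-3.0 ± 0.31, adjusted p = 5.69e-07) and Ccnd3 508, 1055 and 1179 in fraction A and 2894, 3213 and 5818 in fraction B (1.96 ± 0.27, adjusted p = 3.08e-05), each with no overlap and in opposite directions. Ccnd2 gave 3667 to 10834 in fraction A and 4226 to 9837 in fraction B and was not called (-0.15 ± 0.24, adjusted p = 0.771). Among the 23 genes of the G1 group 6 rose and 2 fell (median 0.46): the inhibitor p21 gene Cdkn1a (2.74 ± 0.56), E2f2 (2.16 ± 0.34), Cdk6 (1.08 ± 0.24) and Rbl1 (0.88 ± 0.24, call lost in all but the fits without A3, A4, A6, A7, B1 and B4 (adjusted p up to 0.0919)) rose beside Ccnd3 and E2f8 (0.93 ± 0.27, call lost in all but the fits without A1, A2, A3, A4 and B5 (adjusted p up to 0.107), and within the 9 arrays with adjusted p = 0.0546), and Rbl2 (p130, -1.31 ± 0.27) fell. Cdkn1a was 15.9 on A4 and 46.2 on A6 against 276 to 1133 on the other A arrays.

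Mitosis genes rose in 16 of 34 cases (2.54% of all genes did) and none fell (median 1.08). For 13 of the 34 fraction B lay wholly above fraction A (1.38% of all genes did). Ccnf, a cyclin of the F-box type, gave 13.3, 329 and 668 in fraction A and 737, 1067 and 1228 in fraction B (1.93 ± 0.45, adjusted p = 0.0104). Birc5 (survivin), part of the chromosomal passenger complex, gave 889.5, 1479.6 and 2088 in fraction A and 2795, 3511 and 4743 in fraction B (1.36 ± 0.26, adjusted p = 0.00125). Anln, the anillin of the cleavage furrow, gave 121, 392 and 602 in fraction A and 638, 990 and 1292 in fraction B (1.47 ± 0.36, adjusted p = 0.0134). Fraction B lay above all A arrays for these 3. Nek2 (1.80 ± 0.46), Cenpf (1.63 ± 0.31) and Kif20a (1.57 ± 0.42, call lost without B1, B2 and B3 (adjusted p up to 0.0594)) completed the 6 members that rose most. Mki67, the Ki-67 antigen, was not called (-0.01 ± 0.26, adjusted p = 0.986): it was 44836 on A4, 50574 on A6, 48397 on A7, 43613 on B1 and 43094 on B4, and between 16829.7 and 26666 on the other 9. Within those 9 arrays its difference was 0.30 (adjusted p = 0.0605). Of 32 S phase genes 9 rose and none fell (median 0.69): Mcm10 (2.18 ± 0.56), the methylation maintenance factor Uhrf1 (1.73 ± 0.23), Gins2 (1.61 ± 0.42, call lost without B5, B6 and B7 (adjusted p up to 0.0587)), Ccne2 (1.26 ± 0.33, call lost without B2, B3, B6 and B7 (adjusted p up to 0.0674)), Gins1 (1.08 ± 0.31, call lost without A1, A6, B2, B3, B5, B6 and B7 (adjusted p up to 0.0858)) and Mcm2 (1.07 ± 0.27, call lost without B2 (adjusted p up to 0.0538)) had the largest rises. Of the 7 lists whose counts were followed through every fit, S phase had the least steady one: it ranged from 4 without B2 to 12 without A4, was 2 without B1 and B4 together, and 19 within the 9 arrays. The mitosis count was 10 without B1 and B4 and 24 within the 9 arrays. Within the 5 arrays limma called none of either list, with 13 mitosis and 5 S phase genes higher at an unadjusted p under 0.05.

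Genes of cytotoxic lymphocytes showed the largest falls. Of the 15 genes that fell most, 12 belonged to the NK lists. Of 19 measured NK granule and effector genes 14 fell and none rose (3.86% of all genes fell), with a median difference of -3.62, and for 10 fraction B lay wholly below fraction A (2.09% of all genes did). Gzma, the granzyme A gene, gave 20157, 23873 and 51058 in fraction A and 49, 302 and 616 in fraction B (-6.80 ± 0.41, adjusted p = 2.30e-10), and A6 held the highest value. The chemokine Ccl5 gave 3849, 10278 and 13402 in fraction A and 11.8, 169.7 and 339.6 in fraction B (-6.07 ± 0.45, adjusted p = 2.95e-09), and Ctsw, a cathepsin of cytotoxic cells, 544, 3335 and 5259.7 in fraction A and 6.2, 22.8 and 66.8 in fraction B (-5.56 ± 0.45, adjusted p = 1.03e-08). Ifng (-5.49 ± 0.49), Xcl1 (-5.43 ± 0.33) and Serpinb6b (-5.17 ± 0.31) fell as well. Gzmb was split within fraction A: A4 gave 4.5 and A7 140.4 against 825 to 1065 on the other A arrays, and its difference of -3.41 ± 0.60 was -4.03 without A4. Prf1, the perforin gene, was not called (-0.31 ± 0.31, adjusted p = 0.623): it lay at 473 to 1861 in fraction A and 651 to 1105 in fraction B, while its second probe set fell by 2.03. The granule proteoglycan Srgn was likewise not called, at 8607 to 13524 in fraction A and 7807 to 12962 in fraction B (-0.07 ± 0.18).

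The 250 bases upstream of Gzma are shown as the window of the gene that fell most (GRCm38.p6, RefSeq, chr13:113100982-113101231 on the minus strand, E-box letters in capitals).
Gzma: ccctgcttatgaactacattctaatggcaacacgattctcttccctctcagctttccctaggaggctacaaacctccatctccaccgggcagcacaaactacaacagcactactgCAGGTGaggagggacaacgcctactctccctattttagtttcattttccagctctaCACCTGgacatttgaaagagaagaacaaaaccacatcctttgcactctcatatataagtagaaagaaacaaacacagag
It holds CAGGTG at 2 places, once as CACCTG, and no CAGCTG.

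NK surface receptors fell in 23 of 29 cases (median -3.30) and rose in 2, against 3.86% and 2.54% of all genes. For 21 fraction B lay wholly below fraction A (2.09% of all genes did). Klrd1 (CD94), the shared chain of the NKG2 receptors, had the smallest adjusted p of all probe sets: 4712, 7454 and 9689 in fraction A and 24, 106 and 146 in fraction B (-6.01 ± 0.32, adjusted p = 4.81e-11). Klrk1 (NKG2D) gave 959.6, 4477 and 5562 in fraction A and 2.3, 17.3 and 29.4 in fraction B (-6.21 ± 0.39, adjusted p = 3.05e-10), and Ncr1 (NKp46), which marks NK cells, 662, 2926 and 3633 in fraction A and 3.6, 18.8 and 45.7 in fraction B (-5.40 ± 0.40, adjusted p = 3.08e-09). Fraction B signals of Klrk1 all lay under the 32 added before the logarithm, and those of Ncr1 near it, so the size of these differences is set in part by that number. With 1 or 128 added instead the difference was -7.99 or -4.66 for Klrk1 and -7.10 or -3.90 for Ncr1. A6 was the lowest A array for Klrk1, Ncr1 and Il2rb, and the highest for the kinase-like gene Styk1 at 12060.5 (-5.95 ± 0.41). Il18r1, an interleukin 18 receptor chain, fell by 5.86 ± 0.48, and A7 reached 33118 for it against at most 14160.2 elsewhere. The Ly49 receptor gene Klra8 fell by 5.73 ± 0.41, measured by an x_at probe set, which near-identical Ly49 genes could share. The members that rose were Slamf6 (1.54 ± 0.38) and Slamf7 (1.49 ± 0.37), SLAM-family receptors that are not limited to NK cells; Slamf7 gave 382, 910 and 1862 in fraction A and 907, 2694 and 4330 in fraction B, with B5 the lowest B array. Klra1 (-0.56 ± 0.26), Klra2 (-0.16 ± 0.36), Cd160 (-1.11 ± 0.39) and Il15ra (-0.14 ± 0.45) were not called.

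Of 13 NK adaptors and kinases 10 fell and 1 rose (median -2.64), against 3.86% and 2.54% of all genes. Tyrobp (DAP12) gave 14578, 24305 and 46470.4 in fraction A and 1112, 2261 and 6765 in fraction B (-3.15 ± 0.33, adjusted p = 7.88e-07). Txk (-3.94 ± 0.36), Sh2d1a (SAP, -3.89 ± 0.37), Fyb (-3.68 ± 0.37) and Sh2d2a (-2.78 ± 0.45) fell too. Cd247, the zeta chain of antigen receptors, was the single gene of all those measured with probe sets called both ways. Of these, 1 probe set rose by 1.32 (mean signals 2081.7 in fraction A and 4590.6 in fraction B) and represents the gene, 1 was not called at 1.37, and the remaining 2 fell, with differences of -4.44 and -2.49. The mean over its 4 probe sets gave -1.06 (adjusted p = 0.00369 by limma), so no direction is given for the gene as a whole. Of 17 NK and innate lymphoid transcription factors 10 fell and none rose (median -1.44): Tbx21 (T-bet) gave 1243, 3294 and 11888 in fraction A and 4, 35.4 and 182 in fraction B (-5.70 ± 0.48, adjusted p = 1.89e-08) and Eomes 1555, 3671 and 5879 in fraction A and 33.9, 42 and 184 in fraction B (-5.24 ± 0.36, adjusted p = 1.49e-09), followed by Id2, Nfil3 (-2.31 ± 0.34), Rora (-2.04 ± 0.45) and Zbtb16 (-1.73 ± 0.47, call lost without A1, A6, A7, B1, B4, B6 and B7 (adjusted p up to 0.0778)). Zeb2 (-0.24 ± 0.36), Smad3 (-0.41 ± 0.26) and Irf2 (0.06 ± 0.31) were not called. The remaining leading falls were Tmsb15a, a beta-thymosin (-6.36 ± 0.47), Ms4a4b, a membrane protein of T and NK cells (-6.33 ± 0.39), and Havcr1, the TIM-1 receptor (-5.44 ± 0.42).

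As a marker of that cell type's presence, the 8 measured of 9 NK defining markers were summed. The sum was 38249, 53978 and 73354 in fraction A and 1166, 1404 and 1917 in fraction B. Of the 8 markers 7 fell, Prf1 being the exception, and Ncr1 and Klrk1 were at or under the array median on every fraction B array. NK markers were high on all 7 A arrays, those with raised pro-B markers included. The highest sums were on A7 (73354), A6 (67223) and A4 (64512), the A arrays with a raised top end. Much of each sum came from Gzma, so the order of the A arrays rests largely on that gene. Gzma was 36216 on A7, 51058 on A6 and 38478 on A4, against 20157 to 23873 on the other A arrays. The part of NK cells in the falls was not tested.

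**Figure D3:**
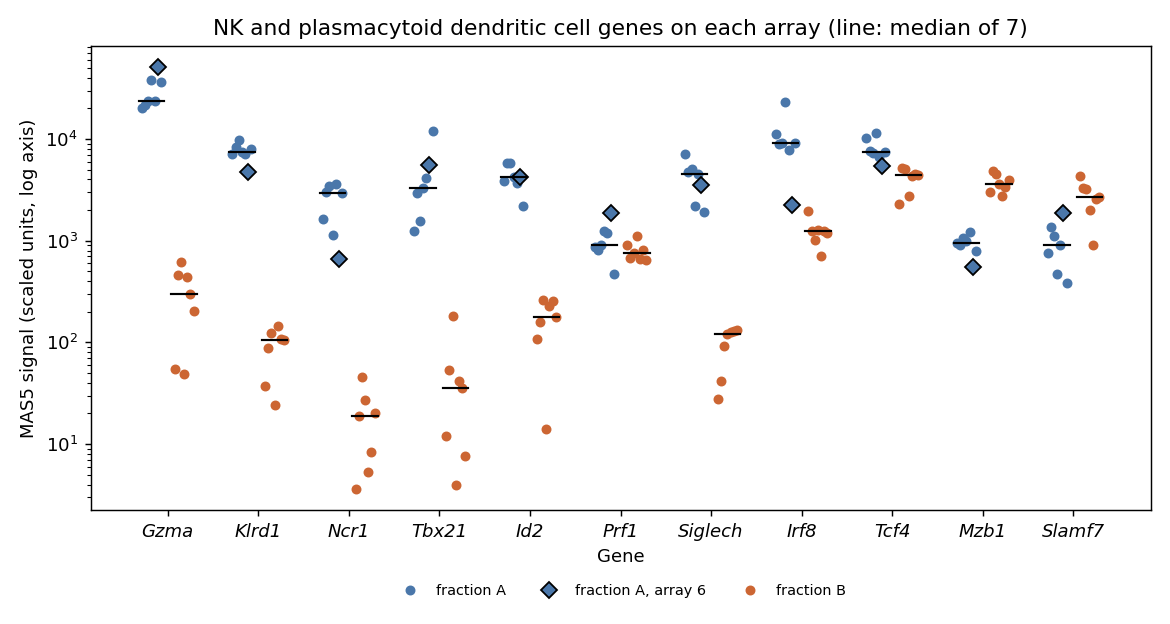
Signal (MAS5 units, log axis) of 11 NK and plasmacytoid dendritic cell genes on each of the 7 arrays of fraction A and of fraction B; lines mark group medians and the diamond marks array A6. Most genes lie lower in fraction B with no overlap, whereas Prf1 overlaps and Mzb1 and Slamf7 lie higher in fraction B.

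Of 27 genes of plasmacytoid dendritic cells 18 fell (3.86% of all genes did) and 1 rose (median -1.49). For 12 fraction B lay wholly below fraction A (2.09% of all genes did). Siglech, which defines these cells in the mouse, gave 1928, 4576 and 7144 in fraction A and 27.5, 121 and 132 in fraction B (-5.00 ± 0.36, adjusted p = 2.49e-09), with A7 and A4 lowest in fraction A. Cd7 (-4.68 ± 0.44), Upb1 (-4.03 ± 0.40), Lair1 (-3.42 ± 0.52), the cysteine protease gene Ctsl (-3.32 ± 0.42) and Klra17 (-3.31 ± 0.72) came next. Klra17 was decided by A4 more than the others: it was 12532 on A4, 1465 on A1 and 106 to 376 on the rest, and its difference was -2.55 without A4. Mzb1, a chaperone of immunoglobulin assembly in B and plasma cells as well as plasmacytoid dendritic cells, moved against the list with 549, 939 and 1221 in fraction A and 2744, 3637 and 4819 in fraction B (1.99 ± 0.25, adjusted p = 8.20e-06). Klk1 was not called (-0.36 ± 0.31) though its 3 other probe sets fell, with differences of -1.44, -1.89 and -1.93. The 8 defining markers summed to 13617, 18500 and 27178 in fraction A and 3709, 5511 and 6344 in fraction B; 7 fell, and their part in the result was not tested. In fraction B most of the sum came from Tcf4 (2316 to 5133).

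Conventional dendritic cell genes fell in 4 of 11 cases (3.86% of all genes did) and none rose (median -0.68). Those that fell were Itgax (CD11c, -5.38 ± 0.36), Id2, Clec10a (-3.89 ± 0.34) and Sirpa (-1.91 ± 0.43). Batf3 (-0.68 ± 0.35), Xcr1 (-0.34 ± 0.33) and Zbtb46 (-0.51 ± 0.43), which mark the dendritic cell lineage more narrowly, were not called. T cell genes fell in 7 of 16 cases and none rose (median -1.15). Thy1, carried by T and some NK cells, gave 1694, 3868 and 7204 in fraction A and 56.7, 124 and 188 in fraction B (-4.65 ± 0.36, adjusted p = 5.59e-09). Cd3g (-3.09 ± 0.40), Cd3d (-2.95 ± 0.50), Cd2, Cd28 and Cd4 followed, and Cd3e fell by 1.64 ± 0.35. Cd8a (-0.68 ± 0.36), Cd5 (-0.04 ± 0.35) and Ptcra (-0.63 ± 0.34) were not called. The 5 measured of 7 T cell defining markers summed to 700, 1391 and 2471 in fraction A and to 78.0, 166 and 301 in fraction B, with 3 of them lower and Cd3d, Cd3g and Themis at or under the array median on every B array. Their part in the result was not tested. Type 2 innate lymphoid genes fell in 3 of 8 cases (median -1.25): Klrg1 (-3.30 ± 0.38), Rora and Gata3 (-1.61 ± 0.36), all members of other lists too.

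Monocyte and macrophage genes fell in 7 of 20 cases (3.86% of all genes did) and none rose (median -1.0). Mpeg1, the perforin-2 gene, gave 2876, 9865 and 14264 in fraction A and 51.9, 217 and 378 in fraction B (-5.40 ± 0.40, adjusted p = 2.95e-09), and it fell beside Ccr2, Csf1r, Fcer1g, Fcgr3 (-1.50 ± 0.36) and Cx3cr1 (-1.27 ± 0.37, call lost in all but the fits without A4, A6 and B7 (adjusted p up to 0.0975)). Lyz2 was not called (-0.22 ± 0.48) and Cd14 was at or under the array median on all 14 arrays. The 6 defining markers summed to 1381, 4728 and 28236 in fraction A, the highest on A4 through Csf1r, and to 634, 1489 and 3026 in fraction B. Of these 6, Csf1r fell. Neutrophil granule genes fell in 5 of 14 cases (median -0.72): Mpo, myeloperoxidase, gave 12532, 15735 and 30058 in fraction A and 401, 1631 and 8259 in fraction B (-3.14 ± 0.41, adjusted p = 1.33e-05), with Ctsg (-3.64 ± 0.53), Prtn3 (-2.79 ± 0.39), S100a8 (-1.76 ± 0.47, call lost in all but the fits without A4, A5, A6, A7, B4 and B5 (adjusted p up to 0.0681)) and Elane (-1.28 ± 0.35, call lost in all but the fits without A1, A4, A6 and B5 (adjusted p up to 0.0835)). Ngp (0.76 ± 0.61) and S100a9 (-0.85 ± 0.49) were not called. The neutrophil markers summed to 16203, 27679 and 36985 in fraction A and 2576, 6308 and 19159 in fraction B, the highest on B5, and 3 of 7 fell. The part of these cells in the results was not tested.

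Genes of the erythroid lineage gave no call among 13 by limma, with 2 higher and 1 lower at an unadjusted p under 0.05 (median -0.14). Of 11 megakaryocyte, basophil and mast cell genes, Cpa3, a mast cell protease, fell (-2.09 ± 0.60), where over all genes 2.54% rose and 3.86% fell. The Cpa3 call by limma was lost in all but the fits without A4 and B5 (adjusted p up to 0.0962) and within the 9 arrays (adjusted p = 0.0833). B5 stood apart from the other B arrays for several of these genes. It gave 4540.5 for Mcpt8, a basophil protease, against 78.1 to 890.2 on the rest of fraction B. Its signal was 2722 for Ms4a2, 2091 for Car1, 4250.5 for Ermap and 8259 for Mpo, each the highest of fraction B. A1 was the highest of fraction A for Mcpt8 (2286), Ms4a2 (2273) and the erythroid anion exchanger Slc4a1 (2202). Of 11 plasma cell genes Mzb1 and Sdc1 (1.60 ± 0.45, call lost in all but the fits without A1, A2, A3, A5 and B3 (adjusted p up to 0.0696), within the 9 arrays and without A4 and A7) rose and Prdm1 fell (-1.36 ± 0.40, call lost in all but the fits without A4, A7 and B5 (adjusted p up to 0.119)), while Jchain (-0.05 ± 0.60) and Xbp1 (-0.92 ± 0.47) were not called. Early progenitor genes rose in 2 of 21 cases (Erg and Sox4) and fell in 5 (median -0.53): Ctla2a (-3.71 ± 0.34), Cd27 (-2.48 ± 0.45), Cd34, Flt3 and Mn1 (-1.65 ± 0.48, call lost in all but the fits without A4, A7 and B7 (adjusted p up to 0.103)).

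Receptors and adhesion molecules shifted downwards as well. Integrins and adhesion genes fell in 13 of 20 cases (3.86% of all genes did) and none rose (median -1.52). For 9 fraction B lay wholly below fraction A (2.09% of all genes did). Itgax, Itgb7 (-3.49 ± 0.33), Itga2 (-2.91 ± 0.63), Itgb3 (-2.46 ± 0.38), Selplg (-2.46 ± 0.33) and Itgb2 (-2.04 ± 0.28) fell most. Itga2, part of the collagen receptor that the DX5 antibody binds on NK cells, ran from 5.8 to 1481 within fraction A, highest on A5 and lowest on A7. Itga4, the alpha chain of the VLA-4 receptor that holds precursors on stroma, was not called (-0.15 ± 0.23, adjusted p = 0.753; 3482 to 7409 in fraction A and 3303 to 6738 in fraction B). Homing receptors fell in 7 of 15 cases (median -1.27): Cxcr3 gave 673, 2629 and 4855 in fraction A and 2.9, 44.6 and 56.8 in fraction B (-5.16 ± 0.41, adjusted p = 7.32e-09), with Ccr2, S1pr5 (-3.88 ± 0.48), Ccr9 (-3.23 ± 0.59), S1pr3 (-2.60 ± 0.50) and Ptger4 (-2.30 ± 0.33). Cxcr4, which keeps precursors in the marrow, was not called (-0.14 ± 0.29, adjusted p = 0.836), and its 5 highest signals were those of the 5 arrays with a raised top end. Gimap GTPases fell in 4 of 8 cases (median -1.02): Gimap3 (-3.09 ± 0.34), Gimap4 (-2.87 ± 0.34), Gimap8 (-2.31 ± 0.41) and Gimap9 (-0.93 ± 0.27, call lost in all but the fits without A4, A7 and B5 (adjusted p up to 0.0999)).

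TNF receptor family genes split, with 2 higher and 5 lower of 14 (median -0.79). Tnfrsf13c, the BAFF receptor, gave 3163, 3602 and 3954 in fraction A and 6422, 7117 and 12116 in fraction B (1.16 ± 0.20, adjusted p = 4.28e-04). Tnfrsf19 rose by 3.03 ± 0.60, with an uneven fraction B (55 to 1318) that overlapped A4 and A6. Cd27, Tnfrsf9 (-2.23 ± 0.44), Tnfrsf18 (-1.54 ± 0.33), Tnfrsf4 (-1.50 ± 0.39, call lost without B2 and B6 (adjusted p up to 0.0613)) and Ltbr (-1.18 ± 0.33, call lost in all but the fits without A1, A7 and B1 (adjusted p up to 0.0814)) fell. Of 10 MHC class II genes, H2-Ob, a chain of the H2-O modulator of peptide loading, rose (280.3, 642 and 849 in fraction A and 2124, 3180.5 and 3556 in fraction B; 2.23 ± 0.28, adjusted p = 1.07e-05) and H2-Eb1 fell (-1.55 ± 0.46, call lost in all but the fits without A3, A4 and B1 (adjusted p up to 0.121)). Cd74 (-0.69 ± 0.44), H2-Ab1 (0.09 ± 0.34) and H2-Aa (-1.26 ± 0.38) were not called. Tapbp fell alone among 10 MHC class I genes (-1.11 ± 0.21). Over all genes 2.54% rose and 3.86% fell, and 1 call in a list of 10 genes is too few to set apart from these shares. Interferon-stimulated genes fell in 5 of 25 cases and none rose (median -0.50): Irf9 (-1.56 ± 0.33), Stat2 (-1.64 ± 0.35), Mx1 (-1.64 ± 0.41), Trim30a (-1.51 ± 0.28) and Ifi47 (-1.24 ± 0.29). The list of 14 Toll-like receptor genes also holds genes of accessory proteins, such as Ly86. From this list Ly86 (-2.42 ± 0.37), Tlr3 (-1.86 ± 0.42) and Tlr7 (-1.49 ± 0.42, call lost in all but the fits without A2, A4, A7, B3 and B4 (adjusted p up to 0.0843 by limma)) fell.

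**Figure D4:**
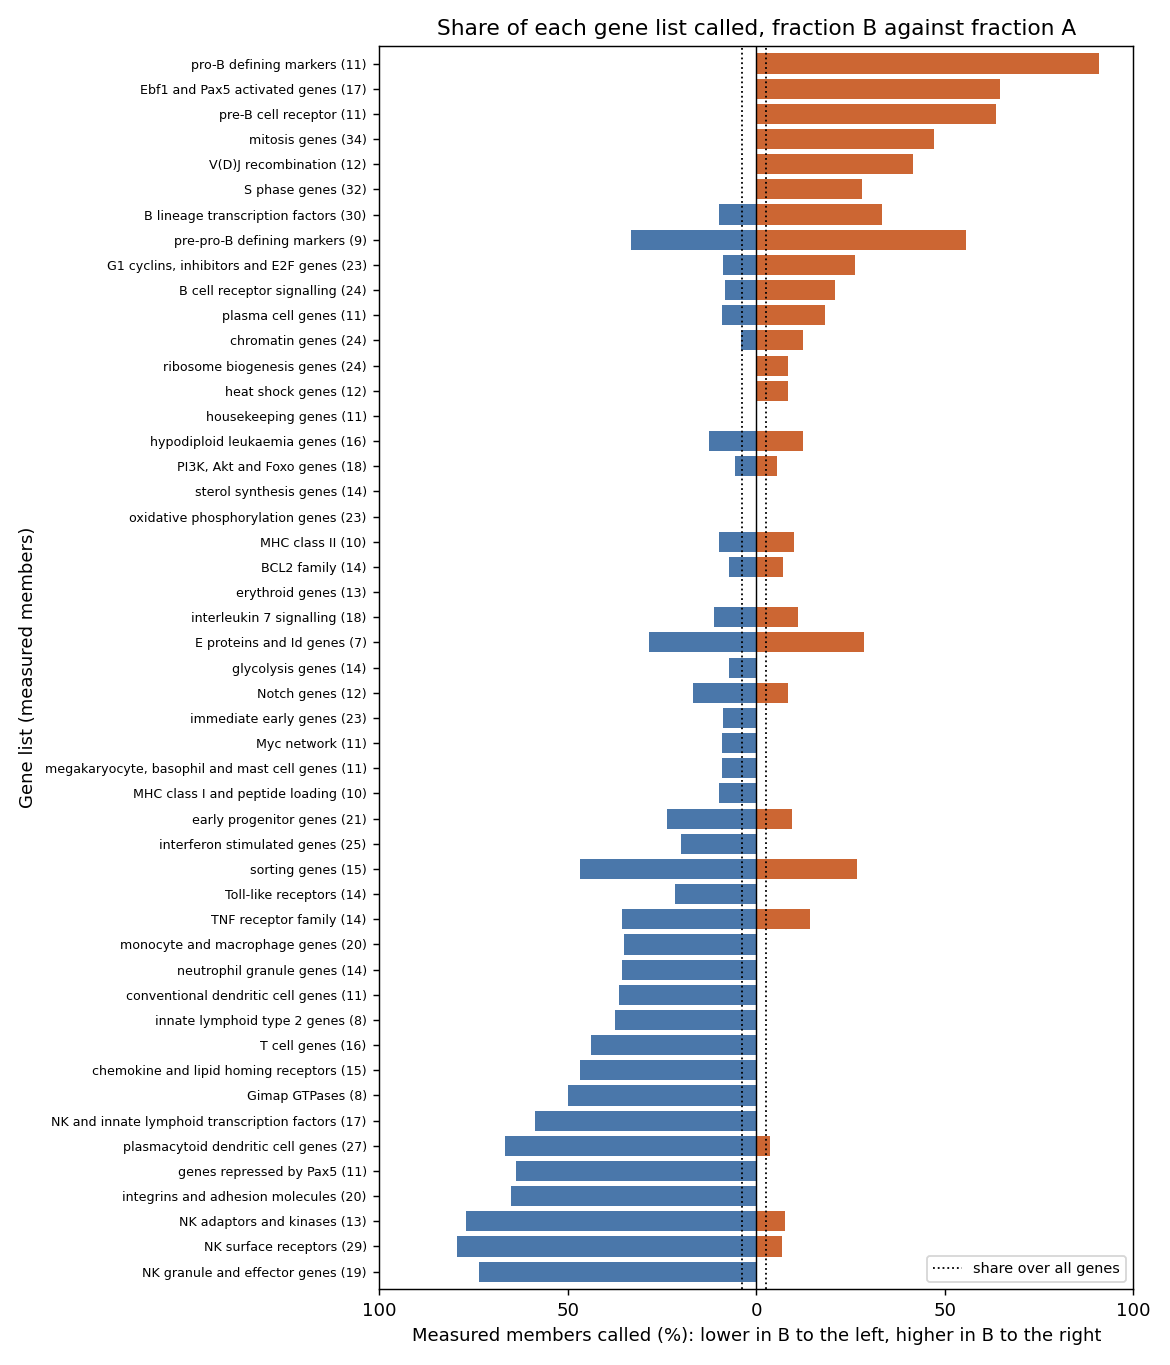
Percent of the measured members of each gene list (number in brackets) that passed limma's test, higher in fraction B to the right and lower to the left; dotted lines mark the shares over all genes, 2.54% and 3.86%. Pro-B markers reach furthest to the right and NK receptors furthest to the left.

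Over all genes 6.41% were called in either direction, and 7 further groups had 1 to 4 calls each. Of 24 chromatin genes, Smarca4, the ATPase of the BAF remodelling complex, gave 1513, 2562 and 5735 in fraction A and 7251, 8921 and 13233 in fraction B (1.76 ± 0.25, adjusted p = 4.42e-05) and Ezh2, the methyltransferase of Polycomb complex 2, 2488, 4111 and 4999 in fraction A and 8199, 10022 and 11755 in fraction B (1.35 ± 0.20, adjusted p = 9.80e-05), both with no overlap. Suz12 also rose (0.95 ± 0.25, call lost without B5 (adjusted p up to 0.0654)) and Tet2 fell (-0.96 ± 0.28, call lost in all but the fits without A4, A6, A7 and B5 (adjusted p up to 0.0919); median of the list 0.23). The series' design text refers to genes altered in hypodiploid leukaemia. Of 16 such genes Pax5 and Ezh2 rose and Ikzf2 and Flt3 fell (median -0.31), while Nf1 (0.12 ± 0.44), Nras (-0.16 ± 0.22), Rb1 (0.33 ± 0.31), Etv6 (-0.40 ± 0.34) and Cdkn2a (-0.34 ± 0.34) were not called. Notch2 (-1.53 ± 0.24) fell, and Dtx1 rose (1.66 ± 0.47, call lost in all but the fits without A1, A2, A5, A6, B2 and B4 (adjusted p up to 0.092) and within the 9 arrays), with 1 higher and 2 lower of 12 Notch genes. Of 23 immediate early genes 2 fell, Nr4a2 (-3.93 ± 0.52) and Fosl2 (-3.30 ± 0.37), beside Fos (-0.58 ± 0.40), Jun (-0.11 ± 0.32) and Egr1 (-1.0 ± 0.32), which were not called. Egr2 was also not called (-1.37 ± 0.62) and reached 4226 on A4 against 63.4 on A7. Of 11 Myc network genes Mycl fell (-3.24 ± 0.35), of 14 glycolysis genes Pfkp (-1.91 ± 0.30), and of 18 PI3K and Foxo genes Pik3r5 (-1.91 ± 0.43) while Foxo1 rose.

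Of 24 ribosome biogenesis genes 2 rose, Gnl3 (1.16 ± 0.29) and Nop58 (0.81 ± 0.22, call lost in all but the fits without A2, A4, A5, A6, A7 and B1 (adjusted p up to 0.0746)), with a median of 0.41, and 1 of 12 heat shock genes, Hsp90aa1 (0.64 ± 0.18, call lost in all but the fits without A1, A5 and A6 (adjusted p up to 0.0909)). Over all genes 2.54% rose. Limma called none of 23 oxidative phosphorylation genes (5 higher and 0 lower at an unadjusted p under 0.05, median 0.32) and none of 14 sterol synthesis genes (0 higher and 4 lower, median -0.27). Uqcrfs1 (1.2 ± 0.38) and Cyc1 (0.97 ± 0.30) in the first list and Insig1 (-0.82 ± 0.26) and Hmgcs1 (-0.92 ± 0.29) in the second had the smallest p. None of 11 housekeeping genes was called (1 higher and 1 lower, median -0.12), among them Actb (-0.53 ± 0.27), Gapdh (0.19 ± 0.23) and Hprt (0.46 ± 0.29). The value of Gapdh is that of its 3' control probe set.

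On the log2 scale the mean of 29 NK receptor genes was 9.30 (A6) to 10.35 in fraction A and 6.42 to 6.74 in fraction B. A4 and A7, the A arrays nearest to fraction B in pro-B markers, were at 9.80 and 9.93, within the range of the other A arrays. The 10 listed genes with the widest range over the A arrays were Vpreb1 (6.64 on the log2 scale), Klra17 (6.51), Pou2af1 (6.26), Csf1r (5.77), Cplx2 (5.71), Egr2 (5.48), Itga2 (5.32), Fcrla (5.31), Mcpt8 (5.31) and Slc4a1 (5.25). A4 was the highest array for the first 6 of these, which include B cell, dendritic cell and monocyte genes, and A1 for the last 3.

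**Figure D5:**
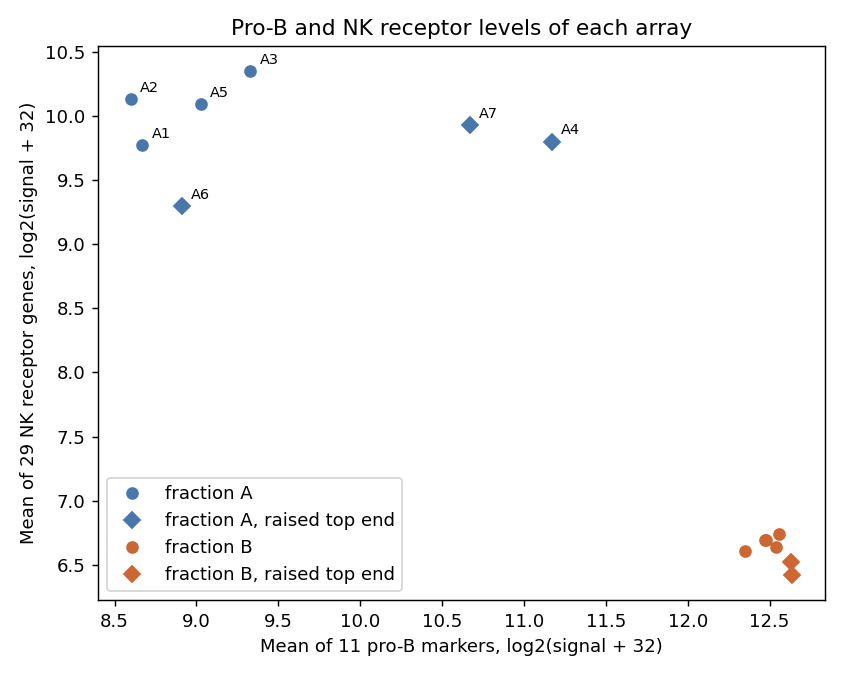
Each point is 1 array: mean of 11 pro-B markers against mean of 29 NK receptor genes, both as log2(signal + 32); A arrays are labelled and diamonds mark the 5 arrays with a raised top end. The B arrays lie together at the lower right, and A4 and A7 lie to the right of the other A arrays at a similar height.

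Of the 717 listed or leading genes, 242 were called. All 242 kept their direction within the 5 arrays with a raised top end, where 45 were called, and 5 (Ccl3, Cpa3, Sdc1, E2f8 and Dtx1) lost the call within the other 9. Both sets are part of the 14 arrays that gave the 242 calls, so the shared direction is no separate support. Of the listed or leading genes not called, 102 gained a call within the 9 arrays and 37 with the set as a block. Leaving out each array in turn, 200 of the 242 were called in all 14 fits. The call was lost by 49 genes without B1 and B4. It was lost by 9 without A4 and A7: Lag3 (difference -0.97, adjusted p = 0.118 by limma), Elane (-1.20, 0.0641), Sdc1 (0.99, 0.0661), E2f8 (0.85, 0.0607), H2-Eb1 (-1.46, 0.0607), Icam1 (-1.09, 0.0847), Hsp90aa1 (0.45, 0.0746), Dtx1 (1.21, 0.133) and Tnfrsf4 (-1.0, 0.0704).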

How the data were processed

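The data are Affymetrix 3' expression arrays of flow-sorted mouse B cell precursors, 7 of Hardy fraction B and 7 of fraction A. The deposited values are MAS5 signals, a linear intensity per probe set, which the authors made with MAS5 (no version stated) per the submitters' processing notes. The array's trimmed mean (2% off each end) was found to be the same on every array. No genome build is named in the sources read. Probe sets were named from the platform's annotation: 34958 of 45101 had 1 gene symbol and were used, 932 had several and 9211 were not listed. The array holds 64 control probe sets, which were not removed as such. Those with 1 gene symbol were used, and the 3' control probe set of Gapdh represents that gene. Entrez numbers of 34754 matched the RefSeq table, and 0 symbols changed.

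From these values log2(signal + 32) was fitted with limma 3.58.1 (lmFit, then eBayes with trend and robust; R 4.3.3, statmod 1.5.0) on the 14 arrays, and p-values were adjusted by Benjamini-Hochberg over all 34958 probe sets. The scripts were tested on simulated data. The number of arrays limits the precision. Figures used Python 3.11.15 and matplotlib 3.10.9.

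The comparison, the gene lists and the markers were chosen with earlier results of these data known, so they are no independent support. Named genes were the 15 largest called rises and falls without overlap, all members of 5 lists (sorting genes, both marker lists of B precursors, the pre-B cell receptor, E proteins and Id genes), up to 6 called members per direction and 5 uncalled members of other lists, members called against most of their list, members with probe sets called both ways, and the 10 widest over the A arrays. Bach2, Cd3e, Gzmb, Icam1, Il2rb, Lag3, the promoter motif holders Ankrd6, Ehd2 and Iftap, and some uncalled members of lists with many calls were named after their values were seen. Of the listed symbols, 79 were not measured by a probe set with 1 symbol.

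Alternatives were other pseudocounts (1 and 128), filters on low signals in at least 5 arrays, quantile normalization, median centring, other ways to represent a gene, array weights, a fit on all 41 arrays, the replicate block, and fits without each array, without A4, A6 and A7, and without B1 and B4. Fits without A4 and A7, within and outside the 5 arrays with a raised top end, and with that set as a block were added after seeing the data.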

Additional observations from a re-analysis of the deposited data

Results flagged for a closer look

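For each of the 276 genes named above, the highest and the lowest array of each fraction were compared with their nearest neighbour on the log2(signal + 32) scale. An array is named here where its gap to that neighbour took a larger share of the range of its 7 arrays than Dixon's 95% critical value allows. Of 552 groups 67 held such an array, and chance gives about 1 in 20. The share of the range taken by the gap stands in brackets after each gene. The 5 arrays with a raised top end held 48 of the 67, and B5 held 12. No cause was tested.

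A6 was far below the rest of fraction A for Ccl5 (0.703), Cd4 (0.578), Cd93 (0.628), E2f2 (0.732), Fcer1g (0.594), Gimap4 (0.754), Ikzf1 (0.595), Ikzf3 (0.571), Itgb2 (0.671), Mpeg1 (0.652), Selplg (0.62) and Slamf6 (0.657), and far above it for Cdkn2a (0.665), Hprt (0.632), Styk1 (0.597) and Themis (0.686). These include the NK and T cell genes Ccl5 (signal 3849 on A6), Styk1 (12060.5) and Gimap4 (2976), and the marker of B cell precursors Cd93 (581). A4 was far below the others for Cd28 (0.692), Emb (0.656), Ifi47 (0.593), Ikzf2 (0.614), Kif20a (0.704), Nek2 (0.781), Pik3r5 (0.668), Stat5b (0.708) and Syk (0.604), among them the mitosis genes Nek2 (signal 9.9) and Kif20a (135) and the kinase gene Syk (457). A7 was the lowest for Cd74 (0.737), Fcrla (0.631) and Fyb (0.617) and the highest for Ccnd1 (0.599), Cd72 (0.598), Klra2 (0.897), Nfatc1 (0.68) and Pfkp (0.642). Fraction A arrays outside that set gave 4 further cases. A1 was the highest for Car1 (0.623) and Ermap (0.587) and the lowest for Tmsb15a (0.581), and A5 the lowest for Fos (0.704).

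In fraction B, B5 was far above the other arrays for Cd4 (0.733), Cdk6 (0.675), Ctsg (0.597), Elane (0.675), Itga2 (0.807), Ms4a2 (0.724), Prtn3 (0.694), Rora (0.647), S1pr5 (0.58), Sh2d1a (0.592) and Suz12 (0.841), and below them for Bank1 (0.751). Granule genes of neutrophil precursors (Ctsg, Elane and Prtn3) and the basophil and mast cell receptor gene Ms4a2 were thus higher on B5 than on the other B arrays. B1 was the lowest for Gimap8 (0.576), Lair1 (0.639), Mn1 (0.58), Nfatc1 (0.673), Ngp (0.677), Satb1 (0.589) and Stat2 (0.577) and the highest for Bst1 (0.658), Il15ra (0.655) and Tnfrsf9 (0.763). B4 was the lowest for Cd81 (0.576), Cxcr3 (0.624), Flt3 (0.625) and Id2 (0.603) and the highest for Bcl2l1 (0.621). Single cases were Ccnf (0.623) low on B6, Hsp90aa1 (0.643) low on B7 and Cx3cr1 (0.741) high on B7. Several of these lay at low signals, such as Mn1 at 1.6 and Ngp at 8.5 on B1 and Cxcr3 at 2.9 on B4.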

How the results depend on the processing

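The number of genes that rose (463) was within 1.5 times of its value under most single changes: 401 with a pseudocount of 1 and 469 with 128, 566 with the filter on the median signal, 494 with that on the 75th percentile, 558 with quantile normalization, 494 with 1 probe set per gene, 631 with probe sets of a gene averaged and 423 without the trend and robust options of limma. The values that moved further are as follows. Centring each array on its median gave 838 higher genes, 395 genes with fraction B wholly above fraction A (251 otherwise) and 241 wholly below (380 otherwise). Array weights gave 1170 higher and 1633 lower genes, 356 listed genes called (229 otherwise), 29 mitosis and 20 S phase genes. A fit on all 41 arrays gave 1775 higher and 2001 lower genes, 357 listed genes, 11 of the pre-B cell receptor (7 otherwise), 25 mitosis and 22 S phase genes. The mean of its probe sets reversed Cd247, to -1.06. No cause of these shifts was tested.

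Without A4, A6 and A7, 1142 genes were lower, 16 S phase genes rose, and 622 genes lay wholly above and 1089 wholly below. Without B1 and B4, 10 mitosis and 2 S phase genes rose, and 516 genes lay wholly above. Further settings were chosen after seeing the data. Without A4 and A7, 411 genes lay wholly above and 741 below. Within the 9 arrays with a lower top end 1008 were higher and 1372 lower, 19 S phase genes rose, and 1100 genes lay above and 1493 below. Within the 5 arrays 12 were higher and 64 lower, with 37 listed genes, 6 NK granule, 10 NK receptor and 2 plasmacytoid dendritic cell genes, 0 pro-B, 0 pre-B cell receptor, 0 mitosis and 0 S phase genes called by limma, and 2040 genes above and 3232 below. Fewer arrays make it easier for groups not to overlap.

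Leaving out each array in turn, the count of higher genes ran from 283 to 479, of lower genes from 563 to 805, of listed genes from 192 to 243, of genes wholly above from 260 to 344 and wholly below from 391 to 512. By list, the called counts were 9 to 10 pro-B markers, 6 to 8 pre-B cell receptor genes, 13 to 15 NK granule genes, 23 to 24 NK receptors, 15 to 19 plasmacytoid dendritic cell genes, 13 to 18 mitosis genes and 4 to 12 S phase genes.

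The replicate numbers in the labels were tried as a block. Same-numbered arrays of the 2 fractions had correlations of their deviations from the group means between -0.18 and 0.191, over 0.1 for 3 of 7 pairs, and 0 arrays correlated best with their own number. The number was therefore not used as a pairing in the main fit. Weak correlations cannot show whether same-numbered arrays shared mice, and the labels do not say. With the replicate block 362 genes were higher and 604 lower, 206 listed genes were called, and 4 S phase genes in place of 9. Of the 717 listed or leading genes, 27 lost a call with the block and 4 gained one. A MAS5 signal near the background of an array has no known depth, so differences of probe sets at low signal are the least certain.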
